A study of Mus musculus with 2 samples.

Results

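The genes described here are the translation initiation and elongation factors of cultured adult mouse neural stem/progenitor cells (NSPCs). They were chosen by name, as the genes whose symbol begins with Eif1 to Eif6 or with Eef1 or Eef2, without pseudogene symbols, a rule that uses no measured value. Of 66 matching names, 1 was a pseudogene (Eef1a1-ps1), which left 65 of the 15046 genes in the table, 53 with an Eif symbol and 12 with an Eef symbol. The set holds the factors themselves and also their regulators, namely the kinases of eIF2, the kinase of eEF2, the inhibitors of eIF4E and the enzymes that methylate elongation factors. 4 genes of these families (Eef1a2, Eif4e3, Eif4e1b and Eef1akmt3) had no row in the table and are not analysed here.

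The cells came from the subventricular zone of male C57/Bl6 mice aged 6 to 8 weeks, were passaged at least 5 times and grew with 20 ng/ml EGF and 20 ng/ml FGF-2. All of them carried a retrovirus that encodes PLIN2-GFP, a fusion of a lipid droplet coat protein with green fluorescent protein, and all belonged to 1 stable line, so the plates are not independent lines. The cells with the 25% highest and the 25% lowest GFP signal, called high and low PLIN2-GFP NSPCs (high and low cells for short), were sorted singly into 2 plates of 384 wells and sequenced by SORT-seq, which counts unique molecular identifiers (UMIs) at the 3' end of polyadenylated RNA. Both categories were on both plates and received no other treatment, but 0 rows of wells held cells of both, so the row and the category cannot be told apart.

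Translation begins when eIF2 brings the initiator tRNA to the small ribosomal subunit, eIF3 and eIF1 prepare that subunit for scanning, and the eIF4 factors bring it to the capped mRNA. eIF5 and eIF5B then permit the large subunit to join. During elongation, eEF1A delivers aminoacyl-tRNAs to the ribosome, the eEF1B complex reloads it with GTP, and eEF2 moves the ribosome to the next codon. eIF5A, named for initiation, helps stalled ribosomes to continue and is counted here with the elongation factors. The mRNA of eEF1A and eEF2 belongs to the class with a pyrimidine tract at the cap, whose translation follows nutrient signals through mTORC1. Dividing cells such as neural progenitors need them in quantity, since a cell must make its protein anew before each division.

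Plate 1 gave 95 low and 84 high cells, and plate 2 gave 72 and 53. Their UMIs were summed per plate and category, which gave 801933 (plate 1) and 857262 (plate 2) UMIs for low cells and 1029023 and 778022 UMIs for high cells. High cells were deeper, with a median of 11709 and 14729 UMIs per cell against 7856 and 11955 in low cells, and their median share of mitochondrial counts was 11.9% and 12.4% against 13.97% and 12.5%. All 10 NSPC markers were in the table, and their summed level, in CPM (counts scaled to the same standard total in each sum, here by library size alone), was 8444 and 8737 in low and 8884 and 9039 in high cells. All 5 microglia markers, the neuronal markers Dcx, Tubb3 and Stmn2 and the oligodendrocyte lineage markers Sox10, Pdgfra, Mbp and Mog had no row in the table, so no level can be given for them. The 3 other oligodendrocyte lineage markers summed to 3268 to 3608 CPM, the astrocyte markers to 663 and 446 CPM in low and 821 and 683 CPM in high cells, the ependymal markers to 12.8 to 23.3 CPM, and the remaining markers of neurons, endothelial cells and fibroblasts to 0.971 to 19.4 CPM a list. Of the tested markers, the astrocyte marker Aldoc, a glycolytic enzyme gene, and the NSPC marker Slc1a3 were called higher in high cells (log2 fold changes of 0.38 and 0.24), and Vim was called lower (-0.22).

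Translation factor mRNA made up about 2% of the UMIs of these cells. With eIF5A counted among them, elongation factors, although few, held more of it than initiation factors. On plates 1 and 2, the 51 genes counted as initiation factors, with their regulators, held 0.852% and 0.894% of all UMIs. The 14 counted as elongation factors held 1.099% and 1.15%. Of these, Eif5a held 5792 UMIs and Eif5a2 held 170 over both plates. With both counted as initiation factors, the order would turn on both plates. A cell carried on average 87.2 and 117.1 UMIs of initiation factors and 112.5 and 150.6 UMIs of elongation factors. Eef1a1 alone gave 61.7% and 63.8% of the elongation factor UMIs. Levels of the members are given as CPM scaled with the TMM factors of edgeR, which adjust library sizes for composition, except where library size alone is named. As each molecule is counted once at its 3' end, they are not divided by gene length.

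**Figure D1:**
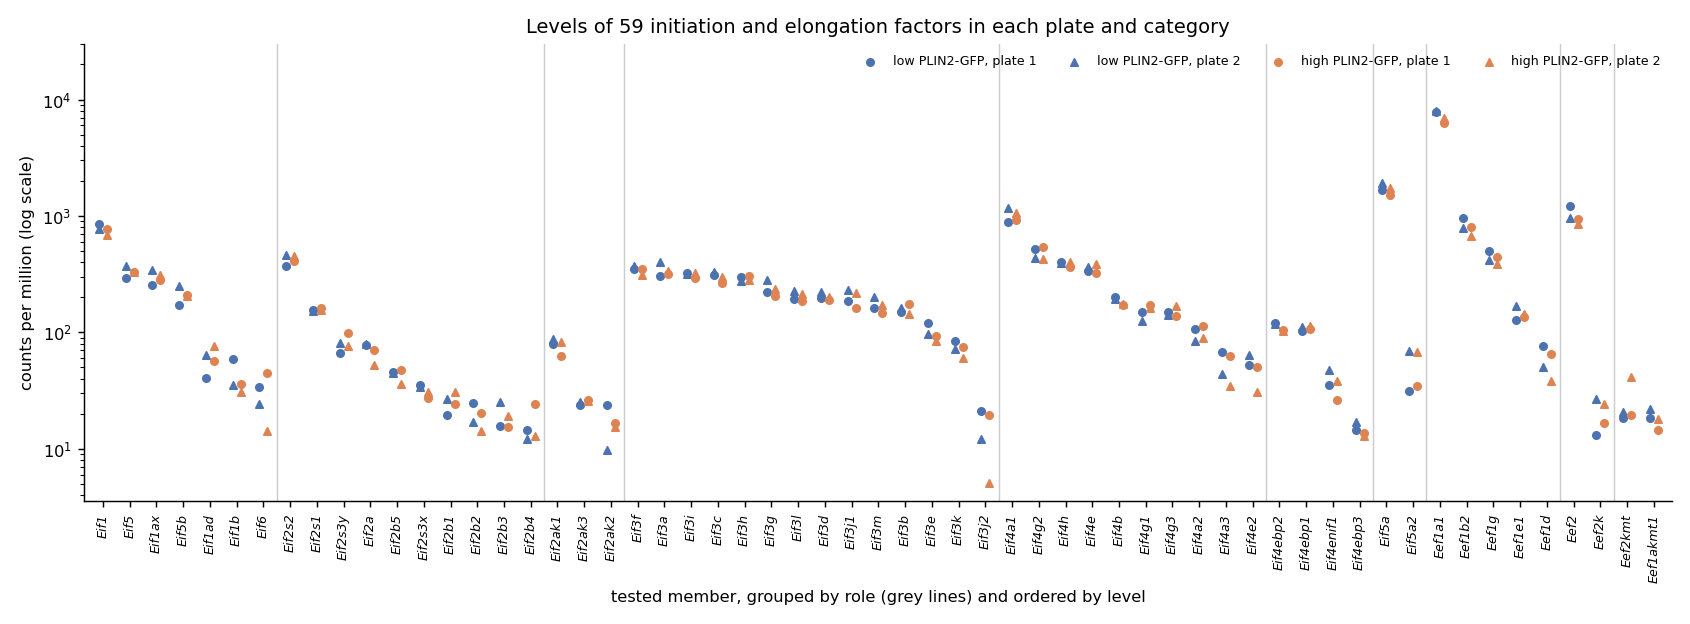
Level of each of the 59 tested members in the 4 sums, as CPM on a log axis, with low PLIN2-GFP in blue and high in orange, and plates as circles and triangles. Members are grouped by role, and Eef1a1 stands above all others, between 6323 and 8043 CPM.

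Eef1a1, on chromosome 9 (78478449 to 78489151, GRCm38), was the most abundant member and ranked 10 among all genes tested. It was followed by Eif5a (rank 51), Eif4a1, Eef2, Eef1b2 and Eif1. Mean levels over the 4 sums were 7269 CPM for Eef1a1, 1718 for Eif5a, 1014 for Eif4a1, 995 for Eef2, 810 for Eef1b2 and 773 for Eif1. Neighbours in the middle of this order could not be separated, since Eif4a1 ranged from 892 to 1180 CPM and Eef2 from 850 to 1225 CPM. All cells held Eef1a1, 99.01% held at least 1 UMI of Eif5a, 97.04% of Eif4a1 and 96.7% of Eef2. At the other end, 6 members were too low to test, and they had 11 to 38 counts over all cells. They were Eif2d, the eIF2 kinase gene Eif2ak4, Eif1a and the methyltransferase genes Eef1aknmt, Eef1akmt2 and Eef1akmt4.

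The first question was whether NSPCs with many lipid droplets differ in these factors from NSPCs with few. A quasi-likelihood fit in edgeR, with the plate as a block, was made over the 4 sums, and genes with an adjusted p (Benjamini-Hochberg over the 8372 genes tested) under 0.1 were called. Of the 59 members tested, 2 were called lower in high cells, both of them elongation factors, against 1.25% of all genes tested. 0 members were called higher, against 0.884% of all genes, and 0 had an unadjusted p under 0.05 in that direction. DESeq2 with the block called 0 higher as well and 1 lower, where it called 0.143% of all genes tested in either direction. The median log2 fold change of the members was -0.10, and that of all genes tested was -6.27e-05. Above 0 lay 20 of the 59 members, against 50% of all genes tested. The median of the members was -0.03 with library sizes alone and -0.16 on plate 2 alone. The median of all genes was not computed in either setting, so these values have no background beside them. On both plates alike, 29 members were below and 10 above 0. The matching shares of all genes were not computed, so these counts do not set the members apart.

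Eef1a1 is the GTPase that carries aminoacyl-tRNA. It had 7789 and 8043 CPM in low and 6323 and 6923 CPM in high cells of plates 1 and 2. Both high sums lay below both low sums, also with library size alone. The means were 7916 ± 180 CPM in low and 6623 ± 424 CPM in high (SD, n = 2 plates). It fell in high cells, with a log2 fold change of -0.26 (SE 0.054, adjusted p = 0.000481 by edgeR). The change was -0.30 on plate 1 and -0.22 on plate 2. In single cells, scaled by their own totals, the median was 6452 and 7286 CPM in high against 7391 and 7809 in low cells. The middle ranges of the cells overlapped, with quartiles of 5807 and 7344 in high and 6735 and 8412 in low cells of plate 1. As high cells held more UMIs, the median cell of plate 1 had 73 UMIs of Eef1a1 if high and 64 if low, so the lower value is a share of the RNA counted and not a number of molecules.

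Eef2, the translocase, lies on chromosome 10 (81176631 to 81182498). It had 1225 and 963 CPM in low and 941 and 850 CPM in high cells. Both high sums lay below both low sums with TMM factors, but not with library size alone, where plate 1 high (939.8 CPM) lay above plate 2 low (925 CPM). It fell by 0.285 on the log2 scale (SE 0.0832, adjusted p = 0.0442 by edgeR), with changes of -0.38 on plate 1 and -0.18 on plate 2. DESeq2 with the block did not call it (adjusted p = 0.579), nor did edgeR with library sizes alone (adjusted p = 0.114) or on cells thinned to 5000 UMIs (adjusted p = 0.201). Without the plate block, neither gene was called (adjusted p = 0.998 by edgeR for both), where 0.0119% of all genes tested were called. Without the low cells of plate 1 the log2 fold change of Eef2 was -0.10, and without those of plate 2 it was -0.45. With any 1 of the 4 sums left out, that of Eef1a1 ranged from -0.32 to -0.19. The astrocyte marker Aldoc rose in the same comparison, and its part in these differences was not tested.

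**Figure D2:**
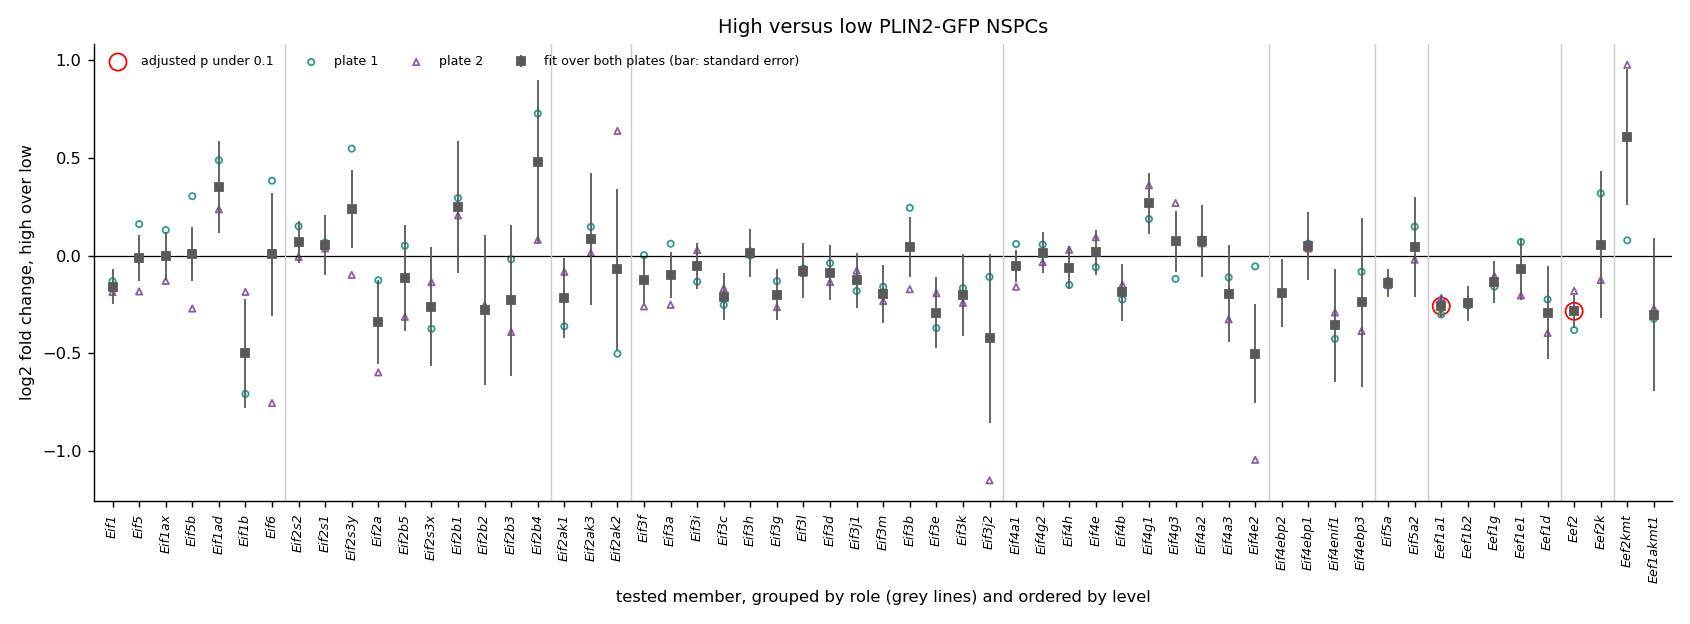
Log2 fold change of high over low cells for the 59 tested members, grouped by role. Squares are the fit with its standard error, circles and triangles are plates 1 and 2, and red rings mark an adjusted p under 0.1, which only Eef1a1 and Eef2 reached.

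The RefSeq promoter windows of both called genes hold the letters TATAA, as a TATA box does, and these stretches are shown because the 2 genes fell together. Each has 60 bases in the direction of the gene, taken from a window of 250 bases before to 50 after the annotated start on GRCm38.p6, with TATAA in capitals.
Eef1a1, chr9:78481695-78481754, minus strand: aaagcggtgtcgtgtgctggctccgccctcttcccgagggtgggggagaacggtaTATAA
Eef2, chr10:81176589-81176648, plus strand: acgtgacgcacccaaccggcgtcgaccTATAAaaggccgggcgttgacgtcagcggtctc
Positions are counted from the RefSeq starts at 81176631 (Eef2) and 78481724 (Eef1a1). The start used for Eef1a1 lies inside the gene span given above, which comes from GENCODE and reaches further upstream. In Eef2 the letters begin 15 bases before that start, and in Eef1a1 they begin 25 bases after it. Windows were found for 52 members. TATAA, searched on both strands, was in 8 of the 67 windows of members (11.9%), in 12.7% of the windows of genes tested and in 24.9% of all windows, so it did not set the members apart.

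The other genes grouped with eEF1 showed values below 0 without a call, and Eef1e1 is in that group by its symbol alone. Eef1b2, which exchanges the nucleotide on eEF1A, had 967 and 791 CPM in low and 810 and 674 CPM in high cells. On each plate the high sum was the lower, but plates differed by as much as categories did, and the log2 fold change of -0.24 (SE 0.0882) was not called (adjusted p = 0.181 by edgeR). Eef1g, a structural subunit of the same complex, had 500 and 415 CPM in low and 448 and 386 CPM in high. All 5 tested eEF1 genes had a log2 fold change below 0, from -0.29 for Eef1d to -0.07 for Eef1e1, with a median of -0.24, and 1 of the 5 was called. Eif5a, on chromosome 11 (69916714 to 69921958), had 1672 and 1932 CPM in low and 1529 and 1739 in high (adjusted p = 0.466 by edgeR). Its ranges in the 2 categories overlapped. Its paralog Eif5a2 had 31.5 and 69.1 CPM in low and 34.99 and 68.1 CPM in high, so plates differed more than categories.

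Eef2k, the kinase that phosphorylates and inhibits eEF2, was rare, at 13.1 and 26.7 CPM in low and 16.5 and 24.4 CPM in high cells. Of the methyltransferase genes, Eef2kmt had 18.4 and 20.6 CPM in low and 19.4 and 41.1 CPM in high, and Eef1akmt1 had 18.4 and 21.8 CPM in low and 14.6 and 18.0 CPM in high. None of these 3 genes was called, and their standard errors of 0.35 to 0.39 on the log2 scale leave room for changes larger than those of Eef1a1.

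Among the 48 initiation factors tested in this comparison, 0 were called, 17 lay above and 31 below 0, and the median log2 fold change was -0.08. The eIF3 subunits, which form the large scaffold on the small ribosomal subunit, included 12 of 14 genes below 0, with a median of -0.13 and a range from -0.42 to 0.05. The most abundant of them, Eif3f, had 353 and 371 CPM in low and 354 and 310 CPM in high cells, so a difference appeared on plate 2 alone. The standard errors of the 11 eIF3 genes with a mean above 150 CPM ran from 0.116 to 0.153.

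The eIF4 factors load mRNA onto the ribosome. Eif4a1, the main helicase, had 892 and 1180 CPM in low and 929 and 1057 CPM in high cells, with opposite directions on the plates. Its paralogs were rarer, Eif4a2 with 84.9 to 112.8 CPM and Eif4a3, a helicase of the exon junction complex, with 34.7 to 68.3 CPM. Eif4e, which binds the cap, had 336 and 361 CPM in low and 323 and 386 CPM in high. Its relative Eif4e2 had 52.5 and 64.3 CPM in low and 50.5 and 30.9 in high, with an unadjusted p of 0.0494 and an adjusted p of 0.453 by edgeR. Of the scaffolds, Eif4g2 had 424 to 539 CPM, Eif4g1 had 126.1 to 172.1 CPM and Eif4g3 had a mean of 150.1 CPM, and Eif4g1 was higher in high cells on both plates without a call (adjusted p = 0.550 by edgeR). The inhibitors of eIF4E were close to each other, Eif4ebp2 with 120.8 and 117.6 CPM in low and 105.95 and 102.8 in high, and Eif4ebp1 with 102.4 and 111.6 CPM in low and 106.9 and 114.4 in high. Eif4ebp3 had 12.9 to 16.98 CPM.

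Of the genes for start codon selection, Eif1 had 850 and 780 CPM in low and 776 and 685 CPM in high cells (adjusted p = 0.528 by edgeR). Eif5, the GTPase activator of eIF2, had 295.5 and 372 CPM in low and 330.5 and 328 in high, which overlapped. Eif1ax had 257.4 and 343 CPM in low and 281.9 and 314 in high, while its autosomal relative Eif1a had 26 counts over all cells. The subunits of eIF2 were Eif2s2 with 373 and 458 CPM in low and 414 and 456 in high, and Eif2s1 with 154.99 and 151.6 CPM in low and 162.3 and 155.5 in high. The third subunit has an X-linked and a Y-linked gene, and the Y-linked Eif2s3y was the more abundant, at 66.99 to 98.2 CPM against 27.2 to 35.5 CPM for Eif2s3x. Reads of this pair, and of Eef1a1 and its pseudogenes, may be divided between related genes, so their counts are less certain. Of the values above 0, 75.3% were whole for Eef1a1 and 95.5% for Eif2s3y, and the rest were fractional estimates. For Eif4a1 100% were whole. The share was lower than that of Eef1a1 for some other members, among them Eif4e2 (67.2%), Eif1 (51.5%), Eif4ebp3 (17.3%) and Eif1a (11.9%). Their counts are thus less certain too. The row of the pseudogene Eef1a1-ps1 held 4 UMIs against 24452 for Eef1a1. Of the eIF2 kinases, Eif2ak1, which responds to heme and mitochondrial stress, had 80.1 and 88.5 CPM in low and 62.2 and 83.6 in high, Eif2ak3, the kinase of the endoplasmic reticulum, had 23.6 to 26.2 CPM, and Eif2ak2, which binds double-stranded RNA, had 9.70 to 23.6 CPM.

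The same category difference was followed within each phase of the cell cycle. Phases were assigned to cells by the authors from scores over other genes, and 12 sums per plate, category and phase were formed. In all 6 pairs of plate and phase, Eef1a1 was lower in high than in low cells. In G1 the levels were 6776 and 7386 CPM in high against 7477 and 8340 in low, in S 6194 and 6666 against 7692 and 7200, and in G2/M 5973 and 6740 against 6874 and 7588. Here CPM are of the library size without scaling factors. Eef2 was lower in high cells in 5 of the 6 pairs, and the exception was G1 of plate 2, with 864 CPM in high and 832 in low. The widest gap was in S of plate 1, with 957 CPM in high and 1434 in low. These pairs divide the same cells as the comparison above. Eef1g, which was not called, was also lower in all 6 pairs. Eef1b2, Eif1 and Eif5a, not called either, were among the members lower in 5. The matching shares of all genes were not computed. The test of whether the category difference varies with phase called 0 of 50 members in S against G1 and 0 of 50 in G2/M against G1, where 0.0162% of the 6190 genes tested were called in each case, and 1 member in each had an unadjusted p under 0.05.

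**Figure D3:**
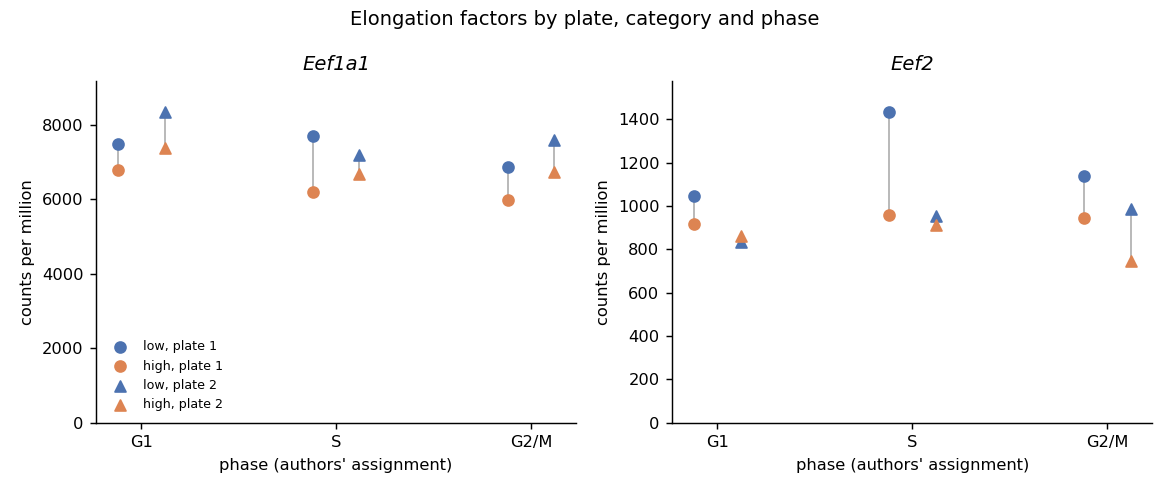
Level of Eef1a1 and Eef2 in CPM for each plate, category and phase, with low PLIN2-GFP in blue, high in orange, plate 1 as circles and plate 2 as triangles, and a line that joins the categories of a plate. Eef1a1 was lower in high in all 6 pairs and Eef2 in 5 of 6.

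As a share of all UMIs, elongation factors held 1.18% and 1.20% in low and 1.03% and 1.09% in high cells. Of these UMIs, Eef1a1 gave 62.5% and 64.2% in low and 61.1% and 63.4% in high cells, so the share largely follows that gene. The elongation share in high minus that in low cells was -0.147 and -0.112 percentage points. On thinned cells it was -0.135 and -0.0803. Initiation factors held 0.832% and 0.910% in low and 0.867% and 0.877% in high, so the difference had opposite signs on the plates. On thinned cells the initiation share was lower in high cells on both plates, with differences of -0.0227 and -0.0539 percentage points. The sign on plate 1 thus turned. Thinning also left out 45 cells with fewer than 5000 UMIs, and plate 1 kept 72 low and 73 high cells. The part of depth and of the left-out cells in this turn was not tested. The median mitochondrial share also differed between the categories, mainly on plate 1. With the mitochondrially encoded genes left out of the totals, the elongation share differed by -0.193 and -0.144 percentage points. With only the 33 cells under 10% mitochondrial counts it differed by -0.161 and -0.104. Those values rest on few cells, 10 high and 4 low on plate 1 and 13 high and 6 low on plate 2.

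The second comparison concerned the phases. G1 cells were the shallowest, with a median of 8290 and 9825 UMIs on plates 1 and 2 against 10994 and 15301 in S and 9565 and 12902 in G2/M, and they had the highest mitochondrial share, 14.04% and 13.8% against 11.3% to 11.9%. The part of depth and mitochondrial RNA in the phase differences was not tested beyond the thinned and low-mitochondrial cells named with them. The markers Olig1, Olig2 and Aldoc were called lower in both phases than in G1, with log2 fold changes from -0.79 to -0.32, and their part was not tested either. Of 58 members tested, 6 were called higher in G2/M than in G1, against 9.36% of the 7667 genes tested, and 2 were called lower, against 7.38%. In S against G1, 1 member was called higher, against 7.62% of all genes, and 1 lower, against 5.14%. The shares of members called were thus near those of all genes or below them. The members' median log2 fold change was 0.04 in G2/M and 0.03 in S, and that of all genes was -0.01 and -0.02.

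In G2/M, 5 of the 6 higher genes belonged to initiation, as did 47 of the 58 members tested. They were Eif4a1, Eif4e, Eif2s2, Eif5 and Eif1ad, and the remaining gene was Eif5a. Eif4a1, on chromosome 11 (69666936 to 69672423), had 833 and 988 CPM in G1, 924 and 1084 in S and 1037 and 1329 in G2/M. The order of the phases was the same on both plates, while G1 of plate 2 lay above S of plate 1. The log2 fold change in G2/M was 0.37 (SE 0.0859, adjusted p = 0.00274 by edgeR). Eif4e, on chromosome 3 (138526179 to 138559696), had 287.6 and 328 CPM in G1, 345 and 383 in S and 378 and 417 in G2/M. Both G2/M sums lay above both G1 sums, and the log2 fold change was 0.37 (SE 0.125, adjusted p = 0.0475 by edgeR).

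Eif2s2, the beta subunit of eIF2 (chromosome 2, 154871410 to 154892935), had 381 and 417 CPM in G1, 364 and 419 in S and 455 and 557 in G2/M. S and G1 overlapped, and G2/M stood above both, with a log2 fold change of 0.33 over G1 (SE 0.115, adjusted p = 0.0541 by edgeR). Eif5 (chromosome 12, 111538016 to 111546752) had 266.96 and 314 CPM in G1, 345 and 369 in S and 365 and 378 in G2/M. G1 was the lowest on both plates, and the log2 fold change was 0.36 in G2/M (adjusted p = 0.0624 by edgeR). Eif1ad, which shares a domain with eIF1A (chromosome 19, 5366741 to 5371526), changed most among the called members, from 35.8 and 52.7 CPM in G1 to 63.01 and 88.6 in G2/M. Its log2 fold change was 0.78 (SE 0.264, adjusted p = 0.0489 by edgeR). Eif5a rose from 1501 and 1707 CPM in G1 to 1759 and 2098 in G2/M, a log2 fold change of 0.26 (SE 0.0732, adjusted p = 0.0139 by edgeR), with 1585 and 1779 CPM in S.

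Eef1a1 fell in both S and G2/M. It had 7571 and 8427 CPM in G1, 6892 and 6934 in S and 6461 and 7510 in G2/M. All 4 cycling sums lay below both G1 sums with TMM factors. With library size alone, G2/M of plate 2 (7214 CPM) lay above G1 of plate 1 (7161 CPM). The log2 fold changes were -0.21 in S (SE 0.0550, adjusted p = 0.0128 by edgeR) and -0.20 in G2/M (SE 0.0549, adjusted p = 0.0141 by edgeR). Without S of plate 2 the change in S was -0.12, and without G2/M of plate 1 that in G2/M was -0.13, and neither was then called. Eef2, by contrast, had 1046 and 901 CPM in G1, 1166 and 935 in S and 1039 and 915 in G2/M and was not called. Eif4b, a helper of the eIF4A helicase (chromosome 15, 102073773 to 102097173), had 206.4 and 206.6 CPM in G1, 180.04 and 228.2 in S and 172.01 and 125.98 in G2/M. Both G2/M sums were the lowest of their plate, and the log2 fold change of -0.46 was called (SE 0.176, adjusted p = 0.0893 by edgeR). The fall in Eif4b was larger on plate 2, at -0.71 against -0.26 on plate 1. It was -0.18 without G2/M of plate 2 and -0.80 without G2/M of plate 1. Eif3a, the largest scaffold subunit of eIF3 (chromosome 19, 60761117 to 60790658), rose in S, from 290.4 and 301.8 CPM in G1 to 367 and 446 in S, with 308 and 366 in G2/M. The log2 fold change in S was 0.45 (SE 0.129, adjusted p = 0.0229 by edgeR). On thinned cells Eif3a was not called (0.448, adjusted p = 0.182 by edgeR). With any 1 of the 6 sums left out, its change in S ranged from 0.34 to 0.55.

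**Figure D4:**
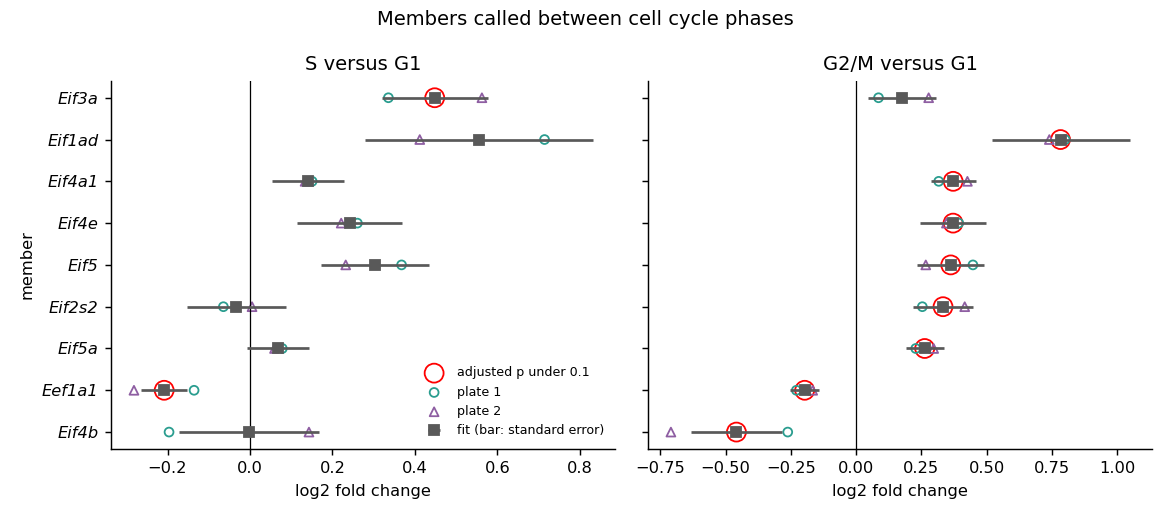
Log2 fold change against G1 of the 9 members called in either phase comparison, in S (left) and G2/M (right). Squares are the fit with its standard error, circles and triangles are plates 1 and 2, and red rings mark an adjusted p under 0.1. Eif4a1, Eif4e, Eif5, Eif1ad, Eif2s2 and Eif5a lie above 0 in G2/M on both plates, and Eef1a1 and Eif4b lie below.

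The phase calls rested on the plate block and on edgeR. Without the block, and with DESeq2, 0 members were called in either phase comparison in either direction. Of all genes tested, 5.83% in S and 8.63% in G2/M were called without the block, and 2.74% and 4.2% with DESeq2. On thinned cells 3 were called higher (Eif4a1, Eif1ad and Eif2s2) and 1 lower (Eef1a1) in G2/M. There 15.5% of all genes tested were called in either direction, and Eif4e, Eif5, Eif5a and Eif4b were not. In S on thinned cells, Eef1a1 (adjusted p = 0.11 by edgeR) and Eif3a were not called, where 9.69% of all genes tested were. With only cells under 10% mitochondrial counts, where plate 1 had no G1 cell, the log2 fold change of Eif4a1 in G2/M was -0.02.

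E-box letters (CACGTG, the sequence that MYC family factors bind) were in the promoter windows of 4 members called by phase, and a stretch of each is shown with the letters in capitals.
Eif4a1, chr11:69672580-69672639, minus strand: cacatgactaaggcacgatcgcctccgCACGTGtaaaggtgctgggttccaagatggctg
Eif3a, chr19:60790664-60790723, minus strand: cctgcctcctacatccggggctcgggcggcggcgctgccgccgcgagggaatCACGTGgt
Eif4e, chr3:138527018-138527077, plus strand: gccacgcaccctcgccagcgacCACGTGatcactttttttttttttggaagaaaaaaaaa
Eif5a, chr11:69921428-69921487, minus strand: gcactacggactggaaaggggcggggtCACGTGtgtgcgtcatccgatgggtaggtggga
Against the RefSeq start of its window, the letters begin upstream in Eif4a1, Eif4e and Eif5a and 22 bases after the start in Eif3a. These starts are at 69672423 (Eif4a1), 138527268 (Eif4e, the downstream of 2 listed starts), 69921386 (Eif5a, 1 of several) and 60790693 (Eif3a), and the last lies just outside the gene span from GENCODE. Of the 67 windows of members, 16 held the letters (23.9%), against 10.4% of the windows of genes tested and 7.15% of all windows. These 16 windows belonged to 14 genes, among them Eef2, Eif4g1 and Eif4h, and the match does not show binding.

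By phase, initiation factors held 0.814% and 0.806% of UMIs in G1, 0.860% and 0.925% in S and 0.895% and 0.947% in G2/M. G1 was the lowest and G2/M the highest on both plates, with a difference between them of 0.0816 and 0.141 percentage points. Elongation factors held 1.11% and 1.18% in G1, 1.12% and 1.12% in S and 1.07% and 1.16% in G2/M. Their phases overlapped between the plates. Eef1a1 was 64.4% and 67.4% of the elongation factor UMIs in G1 and 58.9% and 62.2% in G2/M.

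The authors' clusters 0 and 1 were made from the expression of these same cells, so their levels are given without a test, as CPM by library size alone. Cluster 1 held mostly low cells (26.4% and 20.97% high cells on plates 1 and 2), and cluster 0 mostly high ones (66.3% and 63.5%). Elongation factors held 1.03% and 1.07% of UMIs in cluster 0 and 1.17% and 1.24% in cluster 1, and initiation factors 0.825% and 0.864% in cluster 0 and 0.880% and 0.928% in cluster 1. Both shares were higher in cluster 1 on both plates. Of the 59 members with at least 40 counts, 31 were higher in cluster 1 on both plates and 8 lower, with a median log2 ratio of 0.12 and 0.12, whereas 23.9% of the 8305 genes with that many counts were higher and 35.98% lower on both plates and the medians over genes were -0.06 and -0.06.

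Members with the larger cluster ratios were of low abundance. Eif3k had 65.5 and 47.2 CPM in cluster 0 and 88.7 and 84.5 in cluster 1, and Eif1b, a paralog of Eif1, had 37.6 and 23.04 CPM in cluster 0 and 52.1 and 42.9 in cluster 1. Both were named after their values were seen. Eif5a had 1391 and 1658 CPM in cluster 0 and 1719 and 1960 in cluster 1. Eef2 had 963 and 796 CPM in cluster 0 and 1114 and 993 in cluster 1.

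Category and cluster were also crossed, on the same scale. In all 4 pairs of plate and cluster, the elongation share was lower in high than in low cells. In cluster 0 it was 1.02% and 1.06% in high against 1.07% and 1.099% in low, and in cluster 1 it was 1.07% and 1.22% against 1.23% and 1.25%. Eef1a1, which makes up most of that share, was also lower in high in all 4 pairs. In cluster 0 it had 6345 and 6670 CPM in high against 6836 and 7064 in low. In cluster 1 it had 6270 and 7808 CPM against 7617 and 8031. Eef2 was lower in high in both clusters of plate 1, at 933 against 1060 and 958 against 1205 CPM. On plate 2 it was higher in high in both clusters, at 806 against 776 and 1003 against 992 CPM.

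**Figure D5:**
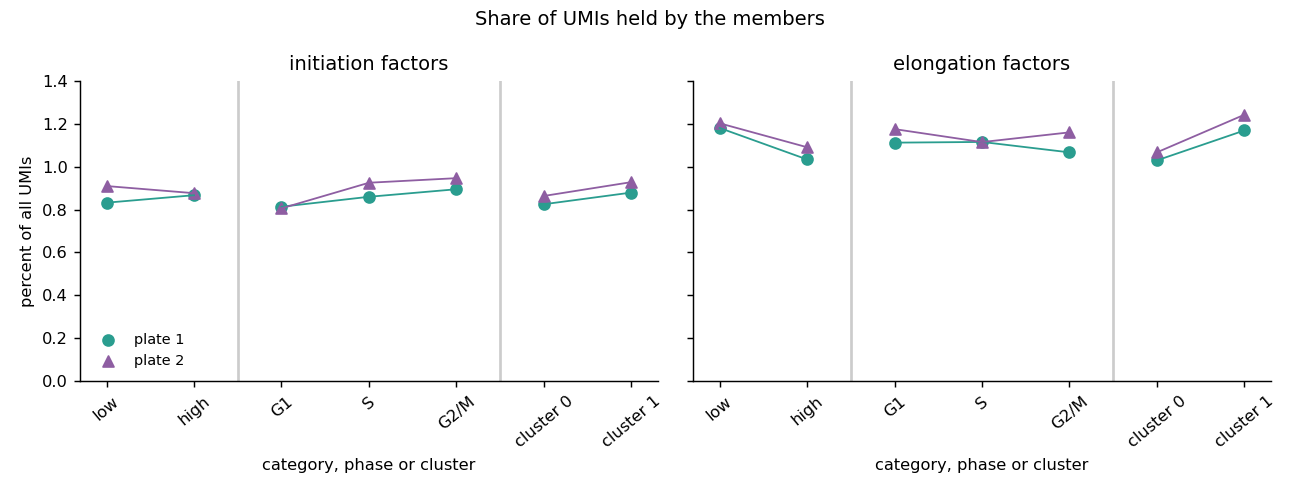
Percent of all UMIs held by initiation factors (left) and elongation factors (right) in each category, phase and cluster, with plate 1 as circles and plate 2 as triangles. The elongation share was lower in high than in low cells and higher in cluster 1 than in cluster 0 on both plates, and the initiation share was lowest in G1.

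Other genes of the translation pathway were taken from lists and counted in the same fits, where 0.884% of all genes tested were called higher and 1.25% lower in high cells, 7.62% and 5.14% in S and 9.36% and 7.38% in G2/M. In high versus low cells, 0 of 4 tested termination and recycling factors, 0 of 13 partners of the cap and the poly(A) tail, 0 of 17 mTORC1 genes, 0 of 4 diphthamide synthesis genes and 0 of 6 mitochondrial translation factors were called. Of 14 genes of the ATF4 pathway, which is switched on when eIF2 is phosphorylated, 1 was called higher, the mitochondrial folate enzyme gene Mthfd2 whose log2 fold change was 0.72 with an edgeR adjusted p of 0.0846. The median log2 fold change of the mTORC1 list was 0.15. By phase, Larp1, which binds pyrimidine tract mRNAs such as that of eEF1A, was higher in S (0.74, adjusted p = 0.00325) and in G2/M (0.82, adjusted p = 0.000683 by edgeR). In G2/M, Pabpc4, a poly(A)-binding protein gene, and Ddx3x, a helicase gene, were also called higher, and Paip2, an inhibitor of poly(A)-binding protein, was called lower (-0.74, adjusted p = 0.00296 by edgeR).

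Of the ATF4 pathway genes, Mthfd2 and Atf5 were called higher and Ddit4 and Sesn2, both inhibitors of mTORC1, lower in S than in G1. The log2 fold changes were 1.35, 0.91, -2.08 and -1.43. In G2/M, Mthfd2 (0.91) and Ppp1r15a (0.98), which brings a phosphatase to eIF2, were called higher. Of 4 tested diphthamide genes, whose enzymes modify eEF2, Dph6 was called higher and Dnajc24 lower in S. The mTORC1 genes, the mitochondrial translation factors and the termination factors had 0 calls in both phase comparisons. The 2 enzymes that modify eIF5A, Dhps and Dohh, had 62 counts together and were not tested.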

How the data were processed

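SORT-seq was done on 2 plates of PLIN2-GFP NSPCs. The authors deposited estimated counts (expected counts) of UMIs per gene and cell, made with Salmon and alevin on GRCm38 per the labels. The annotation release is not given in the sources used here. In the per-cell table the authors deposited total counts, the mitochondrial share as a fraction and a percent, scores of the cell cycle and doublets, plate, category, phase and cluster. The authors kept cells on mitochondrial percentage and doublet detection and regressed the cell cycle out before clustering. Each of the 304 columns of counts was joined to the cell with equal total and gene number, which left 0 unjoined, and mitochondrial percentages agreed within 1e-06. Of the members' values above 0, 92.2% were whole within 1e-06.

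Counts were summed per plate and category, phase or both, and rounded. edgeR 4.0.16 (R 4.3.3) was used with TMM factors, its filter on low counts and the plate as a block. The sums had 1, 2 and 5 residual degrees of freedom. The p-values measure the spread between plates of 1 line. edgeR estimated that spread with information shared over the genes tested, not from a gene's own sums alone. Standard errors were derived from the fold change and the F statistic. The plate number pairs the sums, which share a plate. Their deviations correlated at 0.298 between categories and 0.197 to 0.225 between phases. Alternatives included DESeq2 1.42.0, other scaling and filters, thinned cells and left-out sums. The fits were tested on simulated data. Members were named if called, among the 2 most abundant of their role, or part of a set of paralogs fixed by name. The gene family and the lists were picked with earlier results of these data known, although the rule for members uses names alone. Coordinates are from GENCODE M21, which names 64 of the 65 members, and promoters from RefSeq. Tables were handled in pandas 2.3.3 under Python 3.11.15. The precision is limited by 2 plates.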

Additional observations from a re-analysis of the deposited data

How the results depend on the processing

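Directions of the called members were the same under every alternative run, except that Eif4a1 in G2/M had -0.0196 with only cells under 10% mitochondrial counts. The counts of calls were less stable. Without the plate block, 0 members were called in any comparison, and with DESeq2 and the block 1 (lower in high cells). Of all genes tested, 0.0119% were called in high versus low, 5.83% in S and 8.63% in G2/M without the block. With DESeq2 these shares were 0.143%, 2.74% and 4.2%. With only cells under 10% mitochondrial counts, 0 members and 0 of all 3622 genes tested were called in high versus low. On thinned cells 1 was called lower in high cells, 0 lower in S, 3 higher and 1 lower in G2/M. Of all genes tested, 1.21%, 9.69% and 15.5% were then called in these comparisons, in this order. With library size alone 1 was called lower in high cells, 2 higher in S and 1 lower in G2/M. The shares of all genes were then 2.74%, 12.3% and 16.5%, in the same order. With at least 50 counts in every sum, 2 were called higher in S, where 22.7% of all genes tested were called in either direction. At an adjusted p under 0.05, 1 was called lower in G2/M.

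With 1 sum left out, calls in high versus low were 0 in both directions, in S from 0 to 1 higher and from 1 to 1 lower, and in G2/M from 0 to 7 higher and from 0 to 2 lower. The median log2 fold change of the members then ranged from -0.11 to -0.06 in high versus low, from -0.0143 to 0.12 in S and from 0.00378 to 0.15 in G2/M. Other values of this median were -0.0330 in high versus low with library size alone, -0.0565 there with at least 50 counts in every sum and -0.159 on plate 2 alone, 0.10 in S and 0.14 in G2/M with at least 50 counts in every sum, 0.10 and 0.15 with few mitochondrial counts, 0.0881 and 0.13 on plate 2 alone, and 0.11 in S with library size alone. With mitochondrially encoded genes left out, the elongation share differed by -0.169 percentage points between high and low cells, against -0.129, and by -0.0674 between G2/M and G1, against -0.0303. The cause of these shifts was not tested, and the medians of all genes under the alternatives were not computed. Leaving out a sum from the category comparison also left out the block, and that fit takes a single sum to vary as the rest do. With 2 plates per group, outlying sums could not be sought, and changes of the size seen in Eef1a1 were not called in members as abundant as Eef1b2.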
